A study of Mus musculus with 12 samples.

Results

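The 5 genes described here are Timp1, Timp2, Timp3 and Timp4, which encode the tissue inhibitors of metalloproteinases, and Reck, which encodes a membrane-anchored inhibitor of the same enzymes. They were chosen by name, and their probes were found by matching each probe's transcript accession to RefSeq symbols. This gave 7 of the 39429 probes on the array, with 1 probe each for Timp1, Timp3 and Timp4 and 2 probes each for Timp2 and Reck. All 7 probes, and so all 5 genes, passed the filter on dim probes, beside 30520 of all probes and 25018 genes in total. RNA came from the fractions labelled germ cells and Sertoli cells of the testes of 6 male C57BL/6J mice, with 1 array for each fraction and mouse. The knockout groups are 3 mice whose source name gives a TAp73 knockout, with mouse 120 aged 4 months and mice 86 and 72 aged 8 months. The control groups are 3 mice whose source name says wildtype, with mouse 99 aged 5 months and mice 73 and 74 aged 8 months. The titles of mice 73 and 74 call them het, and only mouse 99 is titled WT, so the controls may hold 2 genotypes. The labels name no other allele, transgene or treatment.

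Tissue inhibitors of metalloproteinases are small secreted proteins that block the active site of matrix metalloproteinases and of some related membrane and secreted peptidases. Matrix metalloproteinases and their relatives cut collagens, laminins, junction proteins and growth factor precursors, and the balance between enzyme and inhibitor sets how much is cut. In the testis, developing germ cells are held to Sertoli cells by junctions that are taken apart and rebuilt as the germ cells move towards the lumen, and these inhibitors are known there as products of somatic cells. Trp73 encodes a relative of p53, and TAp73 is its form with the transactivation domain. The series title puts the study's question in how germ cells adhere and mature. The comparisons ask whether the inhibitors differ by genotype within a fraction and between the fractions.

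Values below are log2 signal relative to the 75th percentile of the same array, so 0 is the level of that percentile and 1 unit is a doubling. The 75th percentile itself ranged from a signal of 1355, on the control Sertoli array of mouse 74, to 5350. Between 64.06% and 78.85% of probes were well above background. Labels say nothing of separate cultures or pools beyond the mouse, and 3 mice per group limit the precision. Trp73 gave signal in every knockout array on each of 3 probes, and its knockout mean lay above its control mean for each probe and fraction. The probe that was well above background on all 12 arrays ranged from -2.79 to -1.91 in knockout and from -4.28 to -2.68 in control germ arrays. On probe A_52_P193555 all knockout arrays lay above all controls of their fraction, and mouse 99, the control titled WT, lay at -9.40 in germ and -9.42 in the Sertoli fraction, while the het-titled mice lay between -4.15 and -2.50. The deleted part of Trp73 is not given in the sources used here, and a probe outside that part checks nothing, so knockout and control stand for the labels.

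The fraction labels were compared with marker genes. Spermatocyte markers were lower in the Sertoli-labelled fraction of control mice in 9 of 9 genes past the threshold (limma with Benjamini-Hochberg adjustment). Fibroblast markers were higher there in 8 of 8 genes and peritubular myoid markers in 8 of 8. Of 16 tested Sertoli cell markers, 7 were higher there and 6 were lower, the latter including Rhox5 and Gata1. Over all 25018 genes 9965 were higher there and 9146 were lower. Fshr was not well above background on any Sertoli-labelled array, and Amh was so in no whole group. The summed fibroblast markers ran from 8.12 to 9.28 on control Sertoli-labelled arrays and from 0.80 to 1.47 on control germ arrays. The summed Sertoli cell markers ran from 5.89 to 6.24 and from 6.17 to 6.44 on the same arrays, so those ranges overlapped. The words Sertoli fraction below therefore name a label and not a purified cell type. A level in a fraction is a mixture, in which fewer cells of a type and less RNA per cell cannot be told apart.

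Of the 5 genes, RefSeq places 3 inside the span of a synapsin gene: Timp1 within Syn1 on chromosome X, Timp3 within Syn3 on chromosome 10 and Timp4 within Syn2 on chromosome 6. Timp2 lies on chromosome 11 and Reck on chromosome 4, with no gene spanning them in that table. The 250 bases before the gene start are shown for Timp1, Timp3 and Timp4, because Timp1 and Timp3 had the widest gaps between the fractions and Timp4 had none past the threshold. They are from RefSeq on build GRCm38.p6, 5′ to 3′ in the direction of the gene, with the GC box (GGGCGG on either strand, the motif bound by Sp1) in capitals. They lie at chrX:20869916-20870165 (plus strand), chr10:86300162-86300411 (plus strand) and chr6:115252206-115252455 (minus strand).
Timp1 promoter: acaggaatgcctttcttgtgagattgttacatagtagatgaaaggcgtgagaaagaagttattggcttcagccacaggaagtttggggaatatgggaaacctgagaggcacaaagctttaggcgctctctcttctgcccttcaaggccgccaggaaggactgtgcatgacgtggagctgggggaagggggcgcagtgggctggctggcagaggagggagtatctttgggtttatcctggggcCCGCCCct
Timp3 promoter: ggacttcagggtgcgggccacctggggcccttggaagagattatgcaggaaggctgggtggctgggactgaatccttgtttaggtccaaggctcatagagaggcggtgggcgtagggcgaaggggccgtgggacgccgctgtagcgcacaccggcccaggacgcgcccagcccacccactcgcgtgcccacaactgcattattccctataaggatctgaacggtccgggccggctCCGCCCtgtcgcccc
Timp4 promoter: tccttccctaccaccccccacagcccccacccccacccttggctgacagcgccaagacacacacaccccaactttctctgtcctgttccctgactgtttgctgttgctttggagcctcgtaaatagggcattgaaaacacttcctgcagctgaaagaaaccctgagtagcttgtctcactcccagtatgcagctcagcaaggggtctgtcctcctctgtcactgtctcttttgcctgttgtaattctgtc
A GC box began 8 bases before the start of Timp1 and 15 bases before that of Timp3, and none was found in the Timp4 window. Timp2 held 1 and Reck held 2 such boxes, and 32.7% of 32851 promoters of this length hold at least 1. GC content was 54.4% for Timp1, 68.0% for Timp2, 65.6% for Timp3, 53.6% for Timp4 and 68.4% for Reck, against a median of 52.4% over all promoters. The Timp4 window held 2 CpG dinucleotides, the Timp1 window 6, and those of Timp2, Timp3 and Reck 21, 18 and 19, with a median of 6 over all. The AP-1 motif TGANTCA (in 6.75% of all promoters), the TATA box TATAAA (12.4%), the STAT motif TTCNNNGAA (7.02%), the E-box CACGTG (6.02%) and the p53 half-site (7.13%), read on both strands, had no match in any of the 5 windows. A match is a description of these letters only.

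Timp1 encodes an inducible secreted inhibitor that is also known as a growth factor-like signal through CD63. It was the member with the lowest level in control germ arrays relative to its Sertoli-labelled level, and it rose in the knockout germ fraction. In control germ arrays Timp1 lay at -3.89 (mouse 99), -4.45 (mouse 73) and -3.61 (mouse 74). In knockout germ arrays it lay at -0.96 (mouse 120), 0.71 (mouse 86) and 0.45 (mouse 72). All 3 knockout values lay above all 3 control values, and the 4-month-old mouse 120 was the lowest of the knockouts. The means were 0.07 ± 0.90 and -3.98 ± 0.43 (SD, n = 3 each), a log2 difference of 4.05 ± 0.44 (SE), or 16.6-fold, with a 95% interval from 3.08 to 5.03. Timp1 ranked 5 of 25018 genes by this difference, and the adjusted p was 0.00721 (limma with Benjamini-Hochberg adjustment). Of the 5 genes it was the 1 called higher, against 0.216% of all genes, while 1837 of all 25018 genes had an unadjusted p under 0.05.

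The size of the Timp1 difference varied between slides, each of which held 1 knockout and 1 control mouse. It was 2.93 on slide 1 (mice 120 and 99), 5.16 on slide 2 (86 and 73) and 4.06 on slide 3 (72 and 74), and it was positive on each. The call, though not the direction, rested on single mice: leaving out mouse 72, 73, 86 or 99 gave adjusted p values of 0.123, 0.14, 0.104 and 0.0844, with differences from 3.73 to 4.10. It passed without mouse 74 (0.0243) or mouse 120 (0.00382). It was also lost in a fit on the germ arrays alone (limma adjusted p 0.188). The same held in the 8-month-old mice alone, 86 and 72 against 73 and 74 (0.0578, difference 4.61). Without both mice titled het, mouse 99 was the only control left, and the difference was 3.96. These subsets hold fewer mice, so a lost call there does not tell age or genotype from lost replication.

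Timp1 was far higher in the Sertoli fraction and its values there overlapped between genotypes. It lay at 6.11 (mouse 120), 5.71 (mouse 86) and 6.39 (mouse 72) in knockout mice and at 6.02 (mouse 99), 6.19 (mouse 73) and 7.04 (mouse 74) in controls. The difference was -0.35 ± 0.44, with a 95% interval from -1.32 to 0.63. The order of the groups was therefore control germ, knockout germ, then both Sertoli groups, which did not differ beyond their spread. Relative to the Sertoli fraction of the same mouse, the germ fraction held 0.104%, 0.0625% and 0.0621% of the Timp1 signal in control mice 99, 73 and 74. In knockout mice 120, 86 and 72 it held 0.747%, 3.13% and 1.62%, all above the controls. These shares use the array scale and are not shares of molecules.

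Timp3 encodes the inhibitor that binds the extracellular matrix and acts on ADAM17 as well as on matrix metalloproteinases. Its values were the tightest of the 5 genes within control germ arrays. In control germ arrays Timp3 lay at 0.02 (mouse 99), -0.04 (mouse 73) and -0.01 (mouse 74). In knockout germ arrays it lay at 0.45 (mouse 120), 0.33 (mouse 86) and 0.57 (mouse 72). The groups did not overlap, as was the case with all knockout above all control values in 6.58% of all genes. The log2 difference of 0.46 ± 0.14 (SE, 95% interval 0.14 to 0.77) did not pass after adjustment (limma, p 0.00854, adjusted p 0.332). In the Sertoli fraction Timp3 lay between 5.90 and 6.05 in knockout mice and between 6.01 and 6.11 in controls, with overlap. The difference there was -0.10 ± 0.14, and its sign turned under quantile scaling (0.13).

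Timp2 encodes a broadly expressed inhibitor that also takes part in the activation of pro-MMP2 on the cell surface by MMP14. Its brighter probe, A_52_P540219, lay at 3.34 (mouse 99), 2.71 (mouse 73) and 2.95 (mouse 74) in control germ arrays. In knockout germ arrays it lay at 2.95 (mouse 120) and 3.50 (mouse 86). The spot of mouse 72 was marked as an outlier by the scanner software and was left out of the fit, so that n is 2 in this group; with marked spots kept it lay at 3.51. The groups overlapped, with a log2 difference of 0.23 ± 0.25 (limma adjusted p 0.997). The other probe, A_65_P12392, was measured on all arrays and lay at 1.28, 1.60 and 1.53 in knockout mice 120, 86 and 72. In control mice 99, 73 and 74 it lay at 0.99, 0.95 and 1.03, all below the knockout values. Its difference of 0.48 ± 0.18 did not pass (limma over 30520 probes, p 0.0196, adjusted p 0.489), so the probes differed in overlap but neither was called.

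The brighter Timp2 probe in the Sertoli fraction lay at 6.42, 6.47 and 6.42 in knockout mice 120, 86 and 72. In control mice 99, 73 and 74 it lay at 6.60, 6.95 and 7.04, so all knockout values lay below all control values, as in 4.86% of all genes. The difference was -0.43 ± 0.23 (95% interval -0.93 to 0.08, limma adjusted p 1). On the other Timp2 probe the difference was -0.25 ± 0.18 and the groups overlapped. Called genes made up 0% of all 25018 genes in the Sertoli fraction (limma, smallest adjusted p 0.152), while 756 had an unadjusted p under 0.05. The summed elongating spermatid markers ran from -0.68 to -0.39 in knockout and from -0.09 to 1.82 in control Sertoli arrays. Of the myoid markers 0 of 8 differences lay above 0, beside 34.8% of all genes. Other lists went the other way, with 13 of 16 Sertoli cell, 9 of 11 macrophage and leukocyte and 6 of 7 endothelial markers above 0. So did 4 of 5 Leydig cell and 6 of 9 spermatocyte markers, while fibroblast markers were split at 4 of 8. The part of these cells in the differences of the inhibitors was not tested. None of the 5 inhibitor genes was called in the Sertoli fraction. All 5 differences were below 0, where 34.8% of all genes lay above 0, with a median of -0.10, as over all genes. The signs of Timp3 and Timp4 turned under quantile scaling and in the authors' deposited table.

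Timp4, the inhibitor known chiefly from heart and brain, had no difference past the threshold in any comparison on this scale. All 12 arrays measured it well above background, and its values ran from -4.65 to -3.58 in all. Control germ arrays lay at -4.14 (mouse 99), -3.98 (mouse 73) and -4.16 (mouse 74). Knockout germ arrays lay at -4.65 (mouse 120), -4.08 (mouse 86) and -4.45 (mouse 72), which overlapped the controls. The knockout difference was -0.30 ± 0.24 in germ (95% interval -0.83 to 0.24) and -0.03 ± 0.24 in the Sertoli fraction (-0.57 to 0.50). The highest value, -3.58, came from mouse 74 in the control Sertoli group, whose array had the lowest 75th percentile. Without that array the difference in the Sertoli fraction was 0.23.

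Reck encodes a glycosylphosphatidylinositol-anchored inhibitor of matrix metalloproteinases that is also a co-receptor with ADGRA2 (GPR124) for Wnt7 ligands. Its brighter probe, A_55_P1964832, lay at -2.96 (mouse 99), -3.69 (mouse 73) and -3.58 (mouse 74) in control germ arrays. In knockout germ arrays it lay at -3.70 (mouse 120), -3.11 (mouse 86) and -3.28 (mouse 72). The groups overlapped, and the difference was 0.05 ± 0.24 (limma adjusted p 0.998), with a sign that turned under 4 other ways of scaling or background correction. Sertoli fraction values of Reck lay between -1.60 and -1.52 in knockout and between -1.71 and -1.16 in control mice, with a difference of -0.08 ± 0.24. The other Reck probe, A_55_P1971734, varied more, with an SD of 0.69 in knockout and 0.87 in control germ arrays. It gave a germ difference of 0.51 ± 0.48, with overlap.

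**Figure D1:**
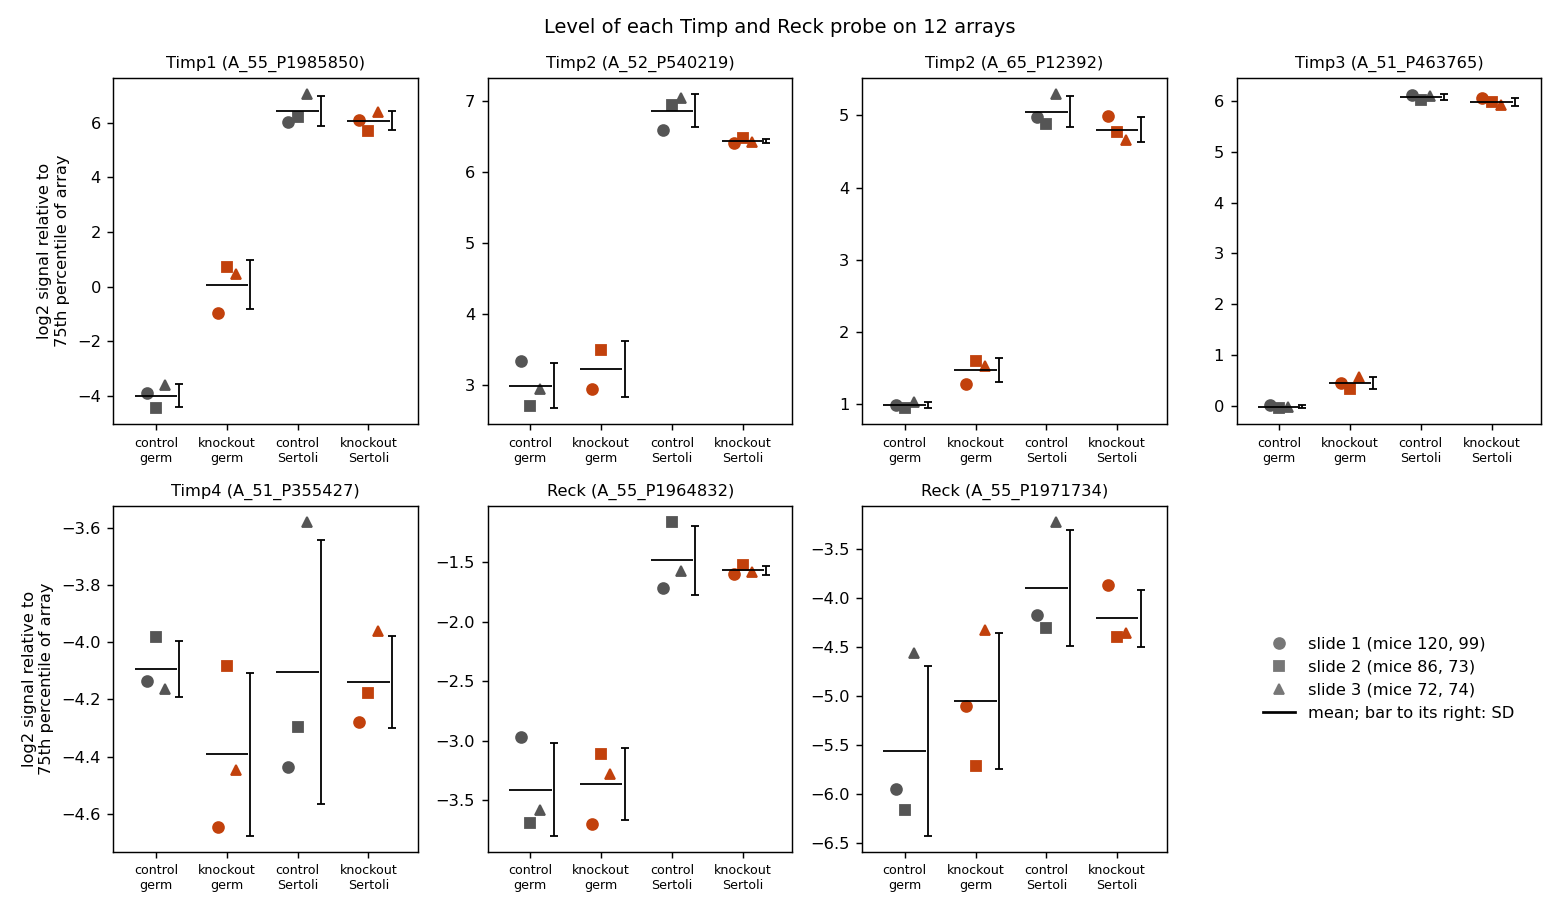
Log2 signal of each of the 7 probes relative to the 75th percentile of its array (vertical axis, a scale of its own in each panel) in the 4 groups, with 1 point per array, the mean as a line and the SD as the bar to its right. Timp1 is the probe with knockout germ arrays (-0.96 to 0.71) clearly above control germ arrays (-4.45 to -3.61), and the Timp4 groups overlap throughout.

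**Figure D2:**
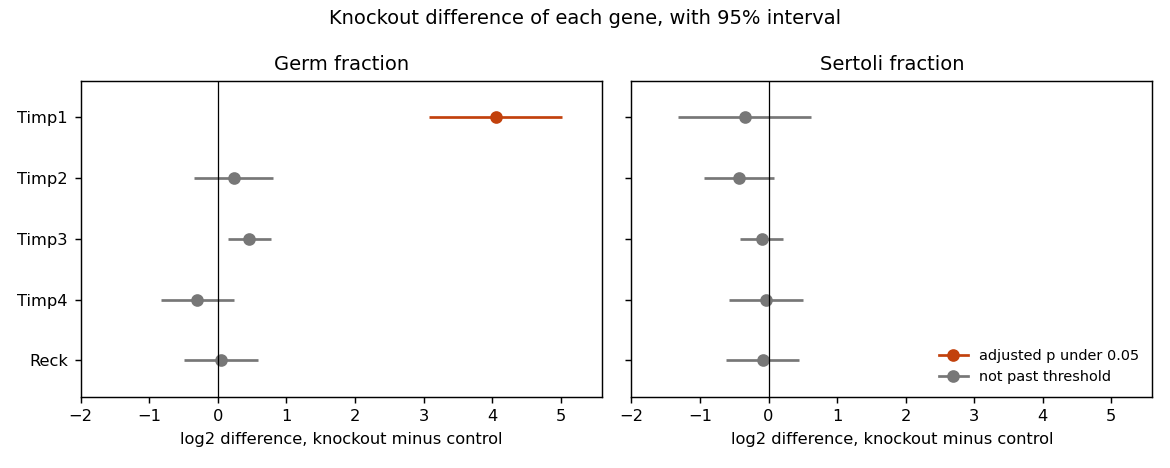
Log2 difference between knockout and control mice (horizontal axis) for each gene's brighter probe in the germ and Sertoli fractions, as points with the 95% interval of the limma fit as lines. The interval of Timp1 in germ runs from 3.08 to 5.03, that of Timp3 from 0.14 to 0.77 without passing after adjustment, and all 5 Sertoli intervals include 0.

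Whether the knockout difference itself differed between the fractions was tested with the interaction term, Sertoli minus germ. For Timp1 it was -4.40 ± 0.62 (SE; 95% interval -5.78 to -3.02) with an unadjusted p of 2.55e-05. After adjustment over all genes it did not pass (limma adjusted p 0.106), and over all alternatives the adjusted p ran from 0.0513 to 0.945. The interaction was -0.56 ± 0.20 for Timp3 (p 0.0189, adjusted p 0.95), -0.65 ± 0.34 for Timp2, 0.26 ± 0.34 for Timp4 and -0.13 ± 0.34 for Reck. None of the 5 was called, against 0.00799% of all genes, which is 2 genes. With a fixed term for each mouse 0 genes were called. For all genes 1145 had an unadjusted p under 0.05.

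The fractions differed in 4 of the 5 genes. In control mice Timp1, Timp2, Timp3 and Reck were higher in the Sertoli-labelled fraction, against 39.8% of all genes called higher there, and in knockout mice these 4 were higher too, against 37.9%. In controls the Timp1 difference was 10.40 ± 0.44 (1354-fold, limma adjusted p 2.77e-09), rank 8 of 25018 genes. In knockouts it was 6.00 ± 0.44 (64.2-fold, adjusted p 2.39e-07), rank 306. The control value shares its germ arrays with the knockout comparison in germ, so a low Timp1 level there enters both.

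Timp3 was 67.6-fold higher in the Sertoli fraction of controls (log2 difference 6.08 ± 0.14, adjusted p 1.34e-10, limma) and 45.9-fold higher in knockouts (5.52 ± 0.14). The germ fraction held 1.46% to 1.51% of the Timp3 signal of the same mouse's Sertoli fraction in controls and 2.02% to 2.48% in knockouts. Timp2 was 14.6-fold higher in controls (3.86 ± 0.23) and 9.24-fold higher in knockouts (3.21 ± 0.25), with 4.06 and 3.33 on its other probe. Reck was 3.80-fold higher in controls (1.93 ± 0.24) and 3.47-fold higher in knockouts (1.80 ± 0.24). On the other Reck probe the difference passed in controls (1.66 ± 0.48, limma adjusted p 0.00835) and did not pass in knockouts (0.84 ± 0.48, adjusted p 0.134). Timp4 differed by -0.01 ± 0.24 in controls and by 0.25 ± 0.24 in knockouts. Its control difference depended on the scaling, at 0.76 after quantile scaling (limma adjusted p 0.0172), where the median of all genes was 0.44 in place of 0.21.

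Most tested markers of other cell types also lay higher in the knockout germ fraction. Of the tested markers, 15 of 16 Sertoli cell, 5 of 5 Leydig cell, 7 of 8 peritubular myoid, 10 of 11 macrophage and leukocyte, 6 of 8 fibroblast and 7 of 7 endothelial genes had a difference above 0, against 45.5% of all genes. The median log2 differences were 0.49, 1.34, 0.61, 1.06, 0.81 and 0.23, against -0.04 for all genes. Of these genes 1 was called by limma, the fibroblast marker Pdgfra (1.25 ± 0.19, adjusted p 0.0359), beside 0.216% of all genes called higher. The call of Pdgfra was lost under 13 of 20 alternatives (adjusted p up to 0.402). The largest marker difference was that of Lyz2, a lysozyme of macrophages (2.73 ± 0.63, adjusted p 0.155), which was well above background on 1 of 3 control germ arrays, ran from 1.18 to 4.13 over its alternatives and passed under 2 of them. Cyp11a1, the first enzyme of steroid synthesis in Leydig cells, differed by 2.02 ± 0.34 (limma adjusted p 0.0505) and passed under 7 of 20 alternatives.

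The summed level of a marker list adds the signal of its genes on each array. In knockout germ arrays the sums ran from 6.61 to 7.05 for Sertoli cell, 2.79 to 3.67 for Leydig cell, 1.30 to 2.13 for macrophage and 1.64 to 2.14 for fibroblast markers. In control germ arrays they ran from 6.17 to 6.44, 1.27 to 2.63, 1.01 to 1.05 and 0.80 to 1.47, with no overlap in these 4 lists. The peritubular myoid sums ran from 5.20 to 5.44 and from 4.90 to 5.19, and the endothelial sums from 2.25 to 2.42 and from 2.05 to 2.34, the latter with overlap. The round spermatid sums ran from 5.48 to 5.72 against 5.79 to 6.02, with no overlap, while the spermatogonia, spermatocyte and elongating spermatid sums overlapped. Of the defining markers, Cd68 and Insl3 had no matched probe and Lhcgr and Amh were well above background in no whole group. The difference between the group means of the sums was largest for Leydig cell markers at 1.35, followed by fibroblast markers at 0.84 and macrophage markers at 0.72, beside 4.05 for Timp1 and 0.46 for Timp3. Among the knockout germ arrays mouse 120 was lowest and mouse 86 highest for Timp1 and for the Leydig cell, macrophage and fibroblast sums. The Sertoli cell, myoid and endothelial sums were highest in mouse 72, and Timp3 was highest in mouse 72 and lowest in mouse 86. The part of these cells in the Timp1 and Timp3 values was not tested.

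**Figure D3:**
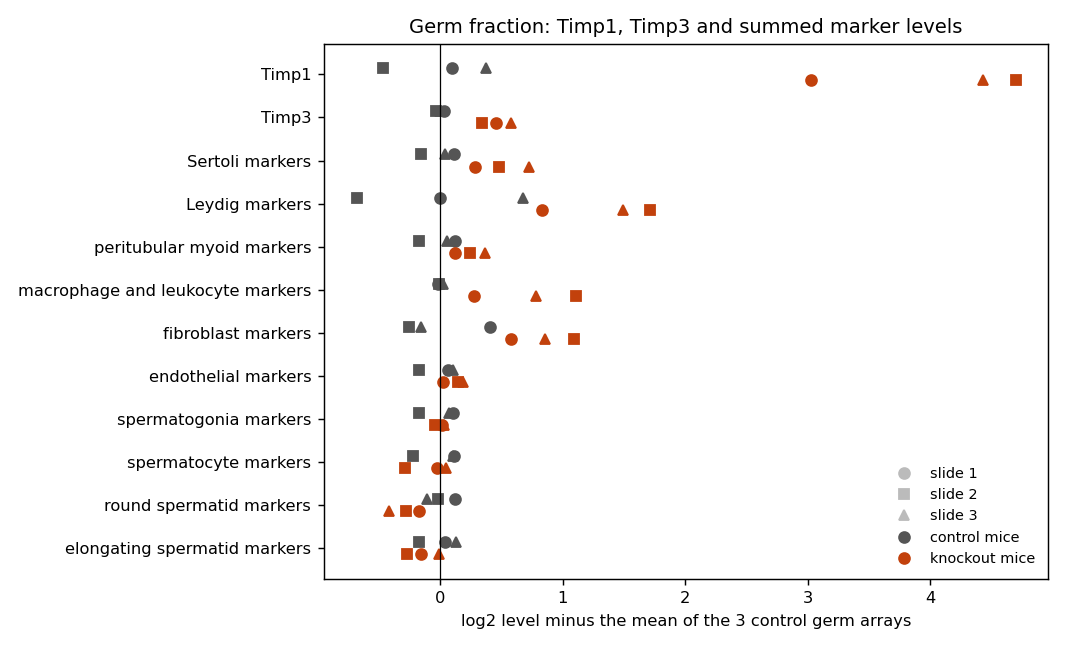
Log2 level of Timp1, Timp3 and the summed markers of 10 cell types on the 6 germ arrays, each minus the mean of the 3 control germ arrays (horizontal axis), with 1 point per array and the slide as the symbol. The knockout points of Timp1 lie furthest to the right, and those of the Leydig cell, macrophage and fibroblast sums also lie to the right of the control points.

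The genes whose pattern was most like that of each member were found by Pearson correlation over the arrays after the mean of each fraction was removed. The arrays share the mice and the genotype difference, so these values are descriptions. For Timp1 the 3 most alike were Wnt10a (r 0.98), which encodes a Wnt ligand, Rab7b (0.98), a small GTPase of late endosomes, and Itgax (0.98), the integrin CD11c of dendritic cells and macrophages, over 12 arrays. For Timp3 they were Ccn1 (0.94), a matricellular immediate early gene product, Ltbp1 (0.94), which binds latent TGF-beta, and Nbl1 (0.94), a BMP antagonist. For Timp2 they were Ap1s1 (0.96), Bax (0.96) and Fbl (0.96) over 11 arrays, for Timp4 Zscan5b (0.98), Gjd4 (0.92) and Fabp1 (0.91), and for Reck Urod (0.97) and Ccndbp1 (0.97). The 3 genes named for Timp4 were well above background on 0 of 3 arrays in each Sertoli group. Wnt10a was so on 1 of 3 control germ arrays, so these correlations rest in part on signal near background. Among the members, Timp1 was most alike to Timp3 (0.87) and Timp2 to Reck (0.73), while Timp3 and Reck were hardly related (0.02).

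Of the enzymes that the inhibitors block, 12 of 23 listed matrix metalloproteinases were tested. Mmp23, which encodes a membrane-bound metalloproteinase, rose in the knockout germ fraction. It was the 1 gene of the list that passed, against 0.216% of all genes called higher. It lay at -3.63, -3.06 and -2.58 in knockout mice 120, 86 and 72. In control mice 99, 73 and 74 it lay at -5.89, -5.51 and -5.46. All knockout values lay above all control values, as in 6.58% of all genes. The difference was 2.53 ± 0.36 (limma adjusted p 0.0228). The call was lost under 8 of 20 alternatives (adjusted p up to 0.3): without mouse 72, 73, 86 or 99, under normexp background correction (1.68), with only the germ arrays, in 8-month-old mice and without both het-titled mice. In controls Mmp23 too was higher in the Sertoli fraction, by 8.64.

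Of the 12 tested matrix metalloproteinases, 7 lay higher and 5 lower in germ, with a median of 0.37, beside -0.04 over all genes. Of the 9 well above background in a whole germ group, 6 lay higher and 3 lower, with a median of 0.51, beside -0.04 over the 23881 genes so measured. Mmp2 and Mmp12 entered these 9 through the knockout group only, a selection that can raise the count and the median. Mmp14, the membrane enzyme that works with Timp2, differed by 1.07 ± 0.73 with overlap (limma adjusted p 0.94). Of 15 tested ADAM and ADAMTS peptidases, 0 were called in germ (limma; 4 had an unadjusted p under 0.05) and 11 lay higher, beside 0.216% called higher, 1837 of 25018 with such a p and 45.5% higher over all genes. Adamts7 (0.69 ± 0.21), Adamts2 (0.87 ± 0.27) and Adam10 (0.57 ± 0.19), the sheddase of Notch and cadherins, had the smallest p, with adjusted p from 0.322 to 0.387. In the Sertoli fraction 0 of 12 and 0 of 15 genes of these lists were called (limma; 0 had an unadjusted p under 0.05), with medians of 0.03 and -0.16 beside -0.10 for all genes. Between the fractions of control mice 9 metalloproteinases were higher in the Sertoli fraction and 1 was lower, and 14 of 15 ADAM and ADAMTS genes were higher and 1 lower, beside 9965 higher and 9146 lower of all 25018 genes.

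Of 12 tested binding partners and receptors, 0 passed in germ (limma; 6 had an unadjusted p under 0.05) while 12 of 12 lay above 0, with a median of 0.65. These and the next lists are to be read beside all genes. Of those, 0.216% were called higher in germ (limma), 1837 of 25018 had an unadjusted p under 0.05, 45.5% lay above 0 and the median was -0.04. Cd74, the receptor component through which TIMP1 is known to signal, differed by 1.73 ± 0.46 (adjusted p 0.236), Efemp1, a fibulin that binds TIMP3, by 1.34 ± 0.42 (0.347), and Lrp1, an endocytic receptor for inhibitor and protease complexes, by 0.97 ± 0.32 (0.377). Unlike the inhibitors, Cd74 was lower in the Sertoli fraction of controls, by a log2 difference of -3.33. Cd63, which encodes a TIMP1 receptor on the cell surface, differed by 0.31 and Itgb1 by 0.42. The list's median in the Sertoli fraction was -0.10. Other extracellular peptidase inhibitors had a median of 0.41 with 10 of 13 higher and 0 called (limma; 5 with an unadjusted p under 0.05), and Frzb, which shares the netrin-like domain, differed by 0.81 ± 0.32 (adjusted p 0.546).

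Genes known from other tissues to induce Timp1 lay higher in 17 of 18 tested cases in germ, with a median of 0.56 and 0 called (limma; 7 with an unadjusted p under 0.05), beside 45.5% above 0 and 1837 of 25018 genes with such a p. Of 16 well above background in a whole germ group, 15 lay higher, with a median of 0.71. Il6, Tnf, Osm and Junb entered these 16 through the knockout group only, a selection that can raise the count and the median. Fos, a subunit of AP-1, lay at 1.10, 2.19 and 1.56 in knockout mice 120, 86 and 72 and at 0.99, 0.53 and 0.55 in control mice 99, 73 and 74. The difference was 0.93 ± 0.26 (limma adjusted p 0.26). The cytokine genes Il6 and Tnf were well above background on 0 of 3 control and 3 of 3 knockout germ arrays. On the main scale their measured mean signals were at least 1.88-fold and at least 2.94-fold higher in knockout germ arrays. Neither gene passed (limma adjusted p 0.16 and 0.254). These are estimates on 1 scale, and over the alternatives the log2 differences went down to 0.65 for Il6 and 0.76 for Tnf. For this bound a control signal under the lowest one well above background was raised to it. Tnf passed the filter on dim probes only through the knockout germ group, so its difference was favoured by that filter. The inducers in the Sertoli fraction had a median of -0.15, with 8 of 18 above 0, and the 15 measured above background in a whole Sertoli group had a median of 0.01, with 8 higher and 7 lower.

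None of the synapsin genes that span 3 of the inhibitors was called in germ (limma; 1 had an unadjusted p under 0.05). Syn1, a synaptic vesicle gene, differed by 0.63 ± 0.22 in germ with overlap (limma adjusted p 0.442), where Timp1 within it differed by 4.05. Between the fractions of controls Syn1 was higher in the Sertoli fraction by 3.00. Syn3 differed by -0.30 and Syn2 by -0.08 in germ, neither past the threshold.

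**Figure D4:**
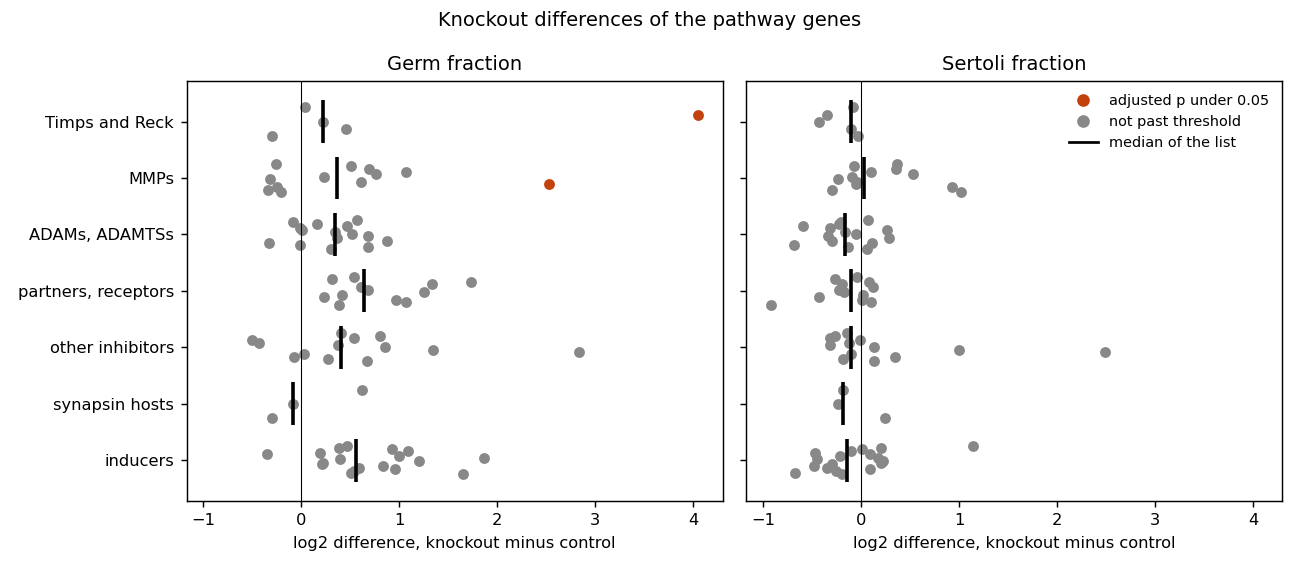
Log2 difference between knockout and control mice (horizontal axis) of the 5 inhibitor genes and of the tested genes of 6 lists in the germ and Sertoli fractions, with 1 point per gene, orange where its limma adjusted p was under 0.05 and grey otherwise, and the list's median as a black line. In germ Timp1 (4.05) and Mmp23 (2.53) passed and most other points lie above 0, and in the Sertoli fraction no point passed.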

How the data were processed

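Each array was a 1-colour Agilent scan, and its deposited files hold the signal intensity of every spot, background-subtracted by Feature Extraction 10.7.3.1, per the file headers. A log2 table of these arrays was deposited as well; the submitters' processing notes name limma without a version. Here the processed intensity of 44397 spots (1377 of them control spots, left out) was divided by each array's 75th percentile and taken to log2. Spots marked as outliers were left out and spots of a probe averaged. A probe was kept if every array of some group measured it well above background, and a gene was represented by its brightest kept probe. RefSeq gave a symbol to 26055 probes and none to 13374. Probes without a symbol that passed the filter were counted as genes under the identifier given by the array.

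The 12 arrays in 4 groups were fitted together with limma 3.58.1 in R 4.3.3, with Benjamini-Hochberg adjustment over 25018 genes and a threshold of 0.05. The model was tested on simulated data. Genes of a list are named where they passed, and otherwise the 3 with the smallest p in germ; for each member the 3 most alike are named, except 1 for Reck that is not reported here. Sfrp1 and Slpi fall under that rule and are given among the other observations; Mmp14, Cd63, Itgb1 and the marker genes were named after their values were seen. The members and lists were chosen with earlier results of these data known.

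Each mouse gave both fractions, so mouse numbers pair arrays. Deviations from the group means correlated between the fractions of a mouse by -0.16 to 0.46. Alternatives were quantile and median scaling, normexp on median signals and median backgrounds, the authors' table, other probe filters, slide and mouse blocks, and subsets of mice. Without both het-titled mice, mouse 99 was the only control, so counts of called genes from that subset rest on a single control mouse. The main fit had no term for the mouse. Its p-values rest on the spread between arrays within groups, pooled over both fractions.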

Additional observations from a re-analysis of the deposited data

Results flagged for a closer look

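Timp3 drew attention because its knockout difference had opposite signs in the fractions on each slide. In germ it was 0.43, 0.37 and 0.58 on slides 1, 2 and 3, and in the Sertoli fraction it was -0.07, -0.04 and -0.19. The Sertoli difference of Timp3 was -0.10, the same as the median over all genes there (-0.10), so that sign is not particular to Timp3. The difference between the fractions, Sertoli minus germ, was -0.56 ± 0.20 (SE) and did not pass over all genes (limma adjusted p 0.95). The Sertoli sign turned under quantile scaling (0.13) and in the authors' deposited table (0.14).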

How the results depend on the processing

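With the mouse as a replicate block in the genotype comparisons, Timp1 in germ kept 4.05 (limma adjusted p 0.00628). The fraction comparisons and the interaction had a fixed term for each mouse instead. The interaction then had 0 called genes in place of 2, and no other call of a member changed. Genes called in germ numbered 55, and 28 under median scaling or with no filter, 25 under normexp, and 1 with only the groups compared, with 8-month-old mice only or without both mice titled het; leaving out a mouse gave 3 to 130. In the Sertoli fraction 0 became 1 in the authors' table and 5 without both het-titled mice, and 0 to 5 without a mouse. The interaction had 1 under quantile or median scaling and in the authors' table, 4 with probes above background on all 12 arrays, 0 with 8-month-old mice only or without het-titled mice, and 0 to 3 without a mouse.

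Timp1 in germ had adjusted p values from 0.00174 to 0.188 over its alternatives. It was 4.05 with only the germ arrays, 4.61 in 8-month-old mice, 3.96 without het-titled mice, 2.93 within slide 1 and 3.73 to 4.56 without a mouse. Timp1 in the Sertoli fraction was 0.048 without het-titled mice and 0.084 within slide 1, and its interaction within slide 1 was -2.85. The differences whose signs turned were not called on the main scale. For Timp2 in germ they were -0.11 without het-titled mice, -0.39 within slide 1 and -0.047 to 0.51 without a mouse. For Reck in germ they were -0.070 under quantile scaling and in the authors' table, -0.071 under median scaling, -0.0199 under normexp, -0.40 without het-titled mice, -0.74 within slide 1 and -0.094 to 0.27 without a mouse. In the Sertoli fraction Timp3 was 0.13 under quantile scaling and 0.14 in the authors' table. Timp4 there was 0.028 under quantile scaling, 0.031 under median scaling, 0.027 in the authors' table, 0.30 without het-titled mice and -0.20 to 0.23 without a mouse; without the control Sertoli array of mouse 74, chosen after seeing the data, it was 0.23. Reck there was 0.15 without het-titled mice and -0.20 to 0.077 without a mouse. Timp4 between fractions of controls was 0.76 under quantile scaling, 0.66 under median scaling and 0.73 in the authors' table, each past the threshold (limma adjusted p 0.0172, 0.0327 and 0.0189), 0.19 under normexp, 0.13 in 8-month-old mice and -0.31 to 0.14 without a mouse. In knockouts it passed under 3 alternatives, up to 1.24 (limma adjusted p 0.000917). The Reck interaction was 0.052 under median scaling, 6e-04 in the authors' table, 0.55 without het-titled mice and -0.47 to 0.17 without a mouse. Within slides, signs also turned for Timp4 (0.16 on slide 1, 0.12 on slide 2) and Reck (0.11 on slide 1) in the Sertoli fraction, and in the interaction for Timp2 (0.21 on slide 1), Timp4 (-0.10 on slide 3) and Reck (0.85 on slide 1). The causes were not tested. Keeping outlier-marked spots, also chosen after seeing the data, changed no call of a member.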

Other observations

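Among the other extracellular inhibitors, Sfrp1, a secreted Wnt antagonist, was well above background on 2 of 3 control germ arrays and had a limma adjusted p of 0.253 in germ. Slpi, a secreted serine peptidase inhibitor, was well above background on 0 of 3 control and 2 of 3 knockout germ arrays (limma adjusted p 0.604). In the authors' deposited log2 table Timp1 lay at 10.82, 12.61 and 12.39 in knockout germ arrays (mice 120, 86 and 72). Control germ arrays there gave 8.00, 7.20 and 7.79 (mice 99, 73 and 74).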
